A study of Mus musculus with 11 samples.

Results

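The cytochrome P450 genes of the mouse kidney were followed through proximal tubule, failed-repair and other cells of control, ischemic and obstructed kidneys. Members were the genes whose symbol was Cyp, digits, a letter and digits with nothing after, except *Cyp24a1* and *Cyp27b1*, with 50 or more UMIs (counted mRNA molecules) over the cells kept. Of the 28692 genes counted, 93 symbols matched this pattern, 49 of those not set aside had fewer than 50 UMIs (21 had 0), and 42 were members. *Cyp4b1* with 123609 UMIs, *Cyp2j5* with 58222 and *Cyp2e1* with 51753 held most of the family's counts. Just inside the limit were *Cyp11a1* and *Cyp4f14* with 52 UMIs each, and just outside were *Cyp2j8* with 41 and *Cyp2c68* with 30. Another 9 named P450 symbols, *Cyp51* and *Cyp4a12a* among them, did not match the pattern and were not members.

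The study profiled kidneys of male C57Bl/6 mice in 11 libraries by droplet sequencing of mRNA 3′ ends after a cold-active protease digest. Injury was induced in mice 10 weeks old. Control kidneys (5 libraries) came from naive mice matched for age, strain and sex. Whether age was matched at injury or at harvest is not stated. Unilateral ischemia-reperfusion (UIR, 3 libraries) was a 30 min clamp of the left renal pedicle, and unilateral ureteral obstruction (UUO, 3 libraries) was an irreversible ligation of the left ureter, both examined at day 28. The question was how P450 expression differed between controls and these long-term injuries, cell type by cell type.

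Cytochromes P450 are heme enzymes that insert an oxygen atom into lipids, steroids, vitamins and foreign compounds. Most sit in the endoplasmic reticulum and take electrons from the reductase encoded by *Por*, while a few sit in mitochondria and use ferredoxin. In kidney the epoxygenases (*Cyp2j*, *Cyp2c*) and fatty acid hydroxylases (*Cyp4a*) convert arachidonic acid into lipid mediators that act on sodium transport and vessel tone, and the proximal tubule (PT) carries most of the drug-oxidising forms. Several mouse family members, *Cyp2d9*, *Cyp2a4* and *Cyp7b1* among them, are known to differ in level between male and female mice.

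The members lay on 12 chromosomes, 11 of them on chromosome 4, and several stood in arrays of related genes. *Cyp4b1* lay at chr4:115624725-115647723 on the minus strand (GRCm38) beside *Cyp4a31* and *Cyp4a10*, and *Cyp2j5* at chr4:96628773-96664154 beside *Cyp2j6* and *Cyp2j9*. *Cyp2d12* (chr15:82555072-82560403, plus strand) shared its array with *Cyp2d9*, *Cyp2d22* and *Cyp2d26*. Reads of closely similar copies can be split or dropped in counting. Of the 50-base windows in the last 600 bases of each gene's transcripts, 44.6% in *Cyp2a4*, 42.1% in *Cyp2a5*, 35.9% in *Cyp2c69*, 26.9% in *Cyp2d9*, 20.7% in *Cyp4f16* and 13.9% in *Cyp2d12* occurred in another gene, so the counts of these genes are uncertain by copy. For 22 of 42 members no window was shared.

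Libraries differed before any gene was compared. Each control library kept 1597 to 2010 cells, while UIR libraries kept 3054 to 5685 and UUO libraries 2942 to 3847, and no pair of libraries shared more than 10 barcodes (0.327%). PT cells were 65.8% to 69.2% of control cells, 10.2% to 16.01% of UIR cells and 0.461% to 2.04% of UUO cells, so UUO levels in PT rested on 16, 34 and 60 cells. Barcodes set aside for over 30% mitochondrial UMIs were 67.1% to 77.0% of candidates in control, 27.4% to 41.5% in UIR and 4.37% to 8.96% in UUO. Control replicate 1 stood apart in free RNA: members made up 0.480% of the UMIs in its empty droplets, whereas the other controls ranged from 0.0795% to 0.0823%, UIR libraries from 0.0524% to 0.124% and UUO libraries from 0.0307% to 0.0588%. Control titles carry 3 prefixes, and no label places the injured libraries beside any of them, so a batch and the injury cannot be told apart.

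Across all kept cells the members took 0.219% to 0.344% of UMIs in control, 0.0674% to 0.0912% in UIR and 0.0438% to 0.0466% in UUO. Within PT cells the share was 0.292% to 0.488% in control, 0.338% to 0.344% in UIR and 0.289% to 0.517% in UUO. The groups were apart over whole kidneys and overlapped within PT cells. Over whole kidneys, fewer PT cells and less P450 RNA per cell cannot be told apart, so every comparison from here on was made within a cell class. All 10 PT markers stood higher in the PT of every library than in the mean of any other class but failed-repair cells. *Lrp2*, which encodes megalin, stood at 1408 to 1840 CPM (UMIs per 1000000 UMIs of the pooled cells, a count of molecules at their 3′ end that needs no division by gene length) in control PT, 1239 to 1550 in UIR and 1117 to 1393 in UUO. Of the 10 markers 5 lay below control without overlap in UUO, *Lrp2* by a narrow margin, *Cubn* (177 to 223 CPM in control and 128 to 173 in UUO), *Slc5a12* (202 to 290 and 39.6 to 125), *Slc5a2* (250 to 351 and 100.4 to 137) and *Miox* (2819 to 3931 and 1657 to 1932). The other 5 overlapped control. In UIR 2 lay below control, *Slc5a2* barely (222 to 249 CPM) and *Miox* (1999.6 to 2431), and 8 overlapped. The part of these shifts in the P450 results was not tested.

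In control PT *Cyp4b1*, which oxidises fatty acids and arylamines, was the highest member, with 1974, 1327, 1079, 1551 and 1571 CPM in replicates 1 to 5 (mean 1500 ± 332, SD, n = 5). *Cyp2j5*, the arachidonic acid epoxygenase abundant in mouse kidney, followed with 821, 564, 550, 607 and 690 CPM (646 ± 112). *Cyp2e1*, the ethanol- and acetaminophen-oxidising form, stood at 798, 521, 389, 582 and 548 CPM (568 ± 148). The ranges of *Cyp2j5* and *Cyp2e1* overlapped, although *Cyp2j5* was above *Cyp2e1* within each of the 5 libraries, and both lay below *Cyp4b1* in all 5 libraries. Replicate 1, the library with most P450 RNA in its empty droplets, was the highest for all 3 genes.

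The next 9 members in order of control mean ran from the *Cyp2a4* steroid hydroxylase at 175 ± 57.2 CPM and the epoxygenase relative *Cyp2j13* at 134 ± 26.4 down to the coumarin hydroxylase *Cyp2a5* at 54.3 ± 14.3. Between them lay *Cyp2d12* (109 ± 39.5), *Cyp2j11* (99.1 ± 20.02), the ω-hydroxylase relative *Cyp4a31* (88.2 ± 5.24), the testosterone hydroxylase *Cyp2d9* (86.5 ± 22.2), the fatty acid ω-hydroxylase and PPARα target *Cyp4a10* (81.1 ± 9.60) and *Cyp2d26* (75.5 ± 6.94). Neighbours among these 9 overlapped between libraries. The oxysterol hydroxylase *Cyp7b1* split the controls: 79.0, 73.7 and 68.8 CPM in replicates 1, 4 and 5 against 19.5 and 20.9 in replicates 2 and 3, which are the 2 controls of 1 title prefix.

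**Figure D1:**
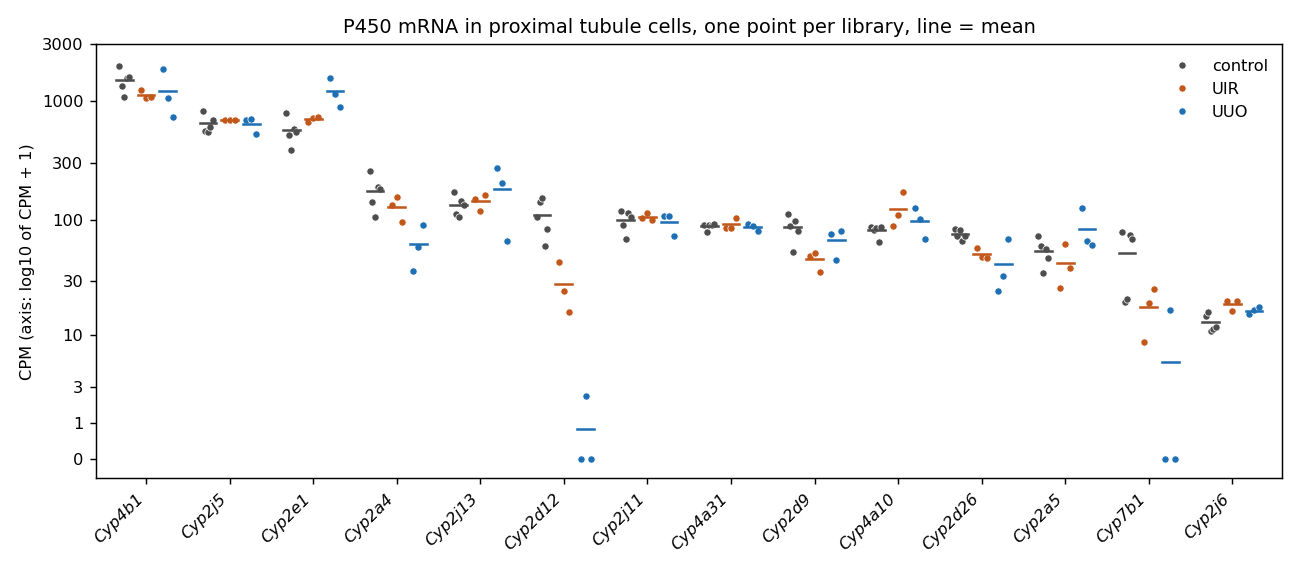
P450 levels in proximal tubule pools, as CPM on an axis of log10(CPM + 1), for the members highest in control PT and the members called in PT. Each point is 1 library (5 control, 3 UIR, 3 UUO) and each line a group mean. *Cyp4b1* lies highest, *Cyp2e1* is higher in UUO than in control, *Cyp2d12* falls from 109 CPM in control to 28.02 in UIR and 0.790 in UUO, and *Cyp7b1* splits the control points.

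Some members differed in level along the tubule. Cells were clustered without any Cyp gene, and PT cells were then read as S1-like or S3-like from marker genes, which left 60 to 284 S1-like and 26 to 165 S3-like cells per control or UIR library. The remaining PT cells are not a segment. They pool clusters that could not be read as S1-like or S3-like, with S1, S2 or S3 markers as their best match. From its S2 markers 1 of them, with 272 cells, was read as S2-like. Its leading genes, *Cd74*, *Clu*, *Lcn2* and *Spp1* among them, held none of those S2 markers. In the 5 controls, some members had S1-like and S3-like levels that did not overlap, and others overlapped. Among those higher in S3-like cells were *Cyp7b1* (mean 578 against 0.776 CPM), *Cyp2a4* (627 against 3.36), *Cyp2d9* (172 against 2.30), *Cyp4a10* (158 against 9.57) and *Cyp2j11* (221 against 25.9). Among those higher in S1-like cells were *Cyp2d26* (216 against 2.56 CPM) and *Cyp2d12* (207 against 3.71). *Cyp2e1* was at 117 CPM in S1-like and 45.9 in S3-like cells but at 816 in the remaining PT cells, and *Cyp4b1* at 468 and 425 against 2050 in the remainder. The epoxygenase *Cyp2j5* was more even, with 506, 787 and 683 CPM in S1-like, S3-like and remaining cells. These contrasts between cells of the same libraries are given without a test.

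The share of PT cells read as S1-like differed between the groups. Only clusters named S1-like or S3-like were counted. Unnamed clusters whose best match was S1 or S3 were left out, so these shares depend on the naming. S1-like cells were 18.7% to 24.5% of control PT cells, 9.34% to 14.6% in UIR and 0% to 6.67% in UUO. S3-like cells were 5.27% to 8.46%, 6.005% to 18.1% and 0% to 11.8%, which overlapped. Levels over all PT cells therefore carry the mix of these cells. Levels within segments are given beside the members called in PT where 20 or more such cells were present.

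After UIR, 6 of 29 members tested in PT changed (20.7%), against 9.65% of all 11477 genes tested. Lower were *Cyp2d12*, *Cyp7b1*, *Cyp2d9* and *Cyp2d26*, and higher were *Cyp4a10* and *Cyp2j6*. The most abundant forms *Cyp4b1*, *Cyp2j5* and *Cyp2e1* did not pass the test. The median log2 fold change was 0.05 over the members and -0.01 over all genes tested. The other 13 members had too few UMIs in PT for the test. The count was 3 at a mitochondrial limit of 15%, 3 without control replicate 4, 2 without UIR replicate 2 and 3 without UIR replicate 3.

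*Cyp2d12* stood at 106, 142, 154, 59.5 and 83.6 CPM in control PT and at 43.5, 24.6 and 15.95 in UIR. Every UIR library lay below every control library. The log2 fold change was -1.94 (SE 0.29; adjusted p = 0.000201, edgeR quasi-likelihood test). Within S1-like cells the levels were 151 to 300 CPM in control against 138, 11.5 and 1.31 in UIR, and in the remaining PT cells 35.1 to 133 against 22.3 to 34.5, without overlap in either. In S3-like cells the gene was low in both groups (0 to 9.41 and 0 to 1.59 CPM), with overlap. The counts of this gene are uncertain by copy, and its array neighbour *Cyp2d9* moved the same way.

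*Cyp2d9* measured 112, 88.8, 52.9, 98.2 and 80.4 CPM in control and 49.6, 52.4 and 35.8 in UIR. The UIR libraries lay below all controls, by a narrow margin from replicate 3. It fell by 0.89 on the log2 scale (SE 0.20, edgeR adjusted p = 0.00675). In S3-like cells, where its level was highest, values were 155 to 203 CPM in control and 140, 109 and 211 in UIR and overlapped. In the remaining PT cells they were 66.1 to 147 against 25.5 to 48.5 and did not.

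*Cyp2d26* measured 82.8, 73.4, 81.9, 66.0 and 73.3 CPM in control and 57.4, 48.3 and 47.0 in UIR. Groups did not overlap, and the log2 fold change was -0.56 (SE 0.14, edgeR adjusted p = 0.0137). In the remaining PT cells control and UIR overlapped (23.0 to 32.5 against 19.1 to 31.9 CPM). Within S1-like cells values were 205 to 243 CPM in control and 176, 219 and 127 in UIR. The fall over all PT cells thus stood beside a smaller share of S1-like cells, whose part in it was not tested. Without UIR replicate 2 or 3 the call was lost.

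*Cyp7b1* was at 8.56, 19.1 and 25.5 CPM in UIR PT. The UIR values overlapped control replicates 2 and 3 (19.5 and 20.9) and lay far below the other 3 controls. Its log2 fold change was -1.58 (SE 0.45, edgeR adjusted p = 0.0305), and the call was lost without any one of control replicates 1, 4 and 5 or UIR replicates 1 and 2. Almost all of it came from S3-like cells, with 722, 325, 378, 756 and 709 CPM in control replicates 1 to 5 and 66.0, 99.3 and 305 in UIR. There each UIR library lay below each control. Elsewhere it was near 0, at 0.440 to 0.966 CPM in S1-like and 0.815 to 2.51 in remaining PT cells of control, and at 0 and 0 to 0.376 in UIR.

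*Cyp4a10* measured 86.3, 82.4, 85.8, 64.1 and 86.5 CPM in control and 89.1, 109 and 172 in UIR. The UIR libraries lay above all controls, 1 of them barely. It rose by a log2 fold change of 0.60 (SE 0.16, edgeR adjusted p = 0.0228), and the call was lost without UIR replicate 2, UIR replicate 3 or control replicate 4. In S3-like cells it was at 130 to 209 CPM in control and 176, 159 and 422 in UIR, and in the remaining PT cells at 75.8 to 117 against 95.8 to 190, with overlap in both. In S1-like cells, where it was low, 4.83 to 13.2 CPM in control lay below 13.5 to 17.0 in UIR. *Cyp2j6*, an epoxygenase relative, rose from 10.7 to 16.1 CPM in control to 20.1, 16.2 and 19.9 in UIR (log2 fold change 0.53, SE 0.15, edgeR adjusted p = 0.026). Within S1-like cells (9.13 to 17.4 against up to 20.2 CPM), S3-like cells (16.2 to 25.9 against 19.9 to 38.0) and the remainder (8.63 to 14.7 against 14.2 to 19.5) control and UIR overlapped. Levels over all PT cells were near those of free RNA (7.82 to 30.2 CPM in the empty droplets of controls and 12.1 to 26.6 in UIR), and the call was lost without any one of the 3 UIR libraries or of control replicates 3, 4 and 5.

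**Figure D2:**
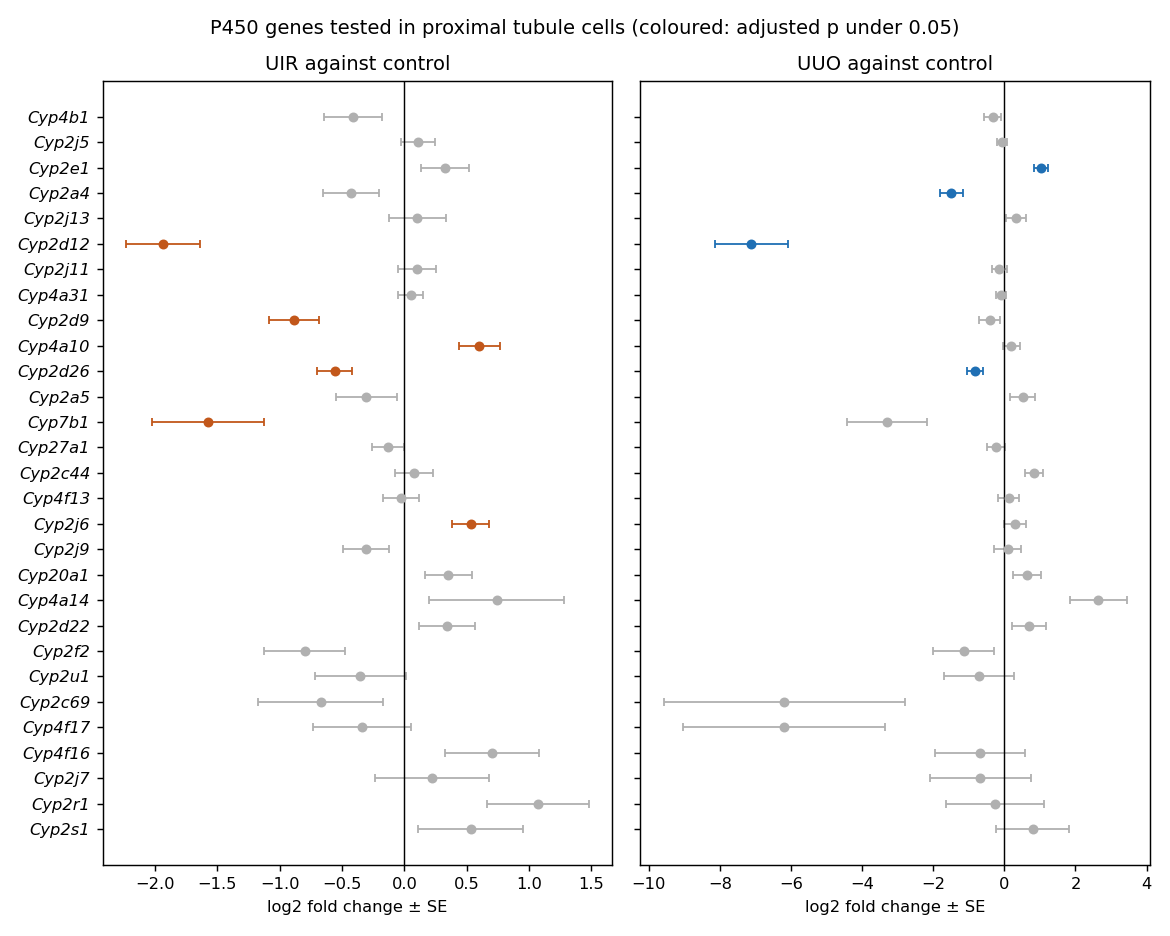
Fold changes of the 29 members tested in PT, as log2 with SE bars, for UIR against control (left) and UUO against control (right). Coloured points passed an edgeR adjusted p of 0.05. *Cyp2d12* and *Cyp2d26* are coloured on the low side in both panels, and *Cyp2e1* on the high side after UUO alone. *Cyp2c69* and *Cyp4f17*, far left in the UUO panel, had 0 UMIs in UUO PT and were not called.

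After UUO, 4 of 29 members tested changed in PT (13.8%), against 5.76% of all genes tested. *Cyp2e1* rose, and *Cyp2d12*, *Cyp2a4* and *Cyp2d26* fell. *Cyp4b1* and *Cyp2j5* did not pass, with log2 fold changes of -0.33 (edgeR adjusted p = 0.495) and -0.06. The median log2 fold change was -0.14 over the members and -0.05 over all genes tested. The 4 calls (1 higher, 3 lower) became 8 with DESeq2 (4 higher, 4 lower), 7 with no filter on low counts, 7 at a mitochondrial limit of 50% (3 higher and 4 lower in both), 7 when cells were named singly (2 higher, 5 lower) and 2 without UUO replicate 2.

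*Cyp2e1* stood at 1570, 1139 and 891 CPM in UUO PT and at 389 to 798 in control. Every UUO library lay above every control library. The log2 fold change was 1.04 (SE 0.20, edgeR adjusted p = 0.00313). Among PT cells that were neither S1-like nor S3-like the values were 1265 and 1212 CPM in the 2 UUO libraries with 20 or more such cells, against 564 to 1173 in control. There they lay above all controls, the nearest being replicate 1, the library with most free P450 RNA. In UIR, 666, 723 and 734 CPM overlapped control, while in S1-like cells (214 to 436 against 68.5 to 178 CPM) and S3-like cells (142 to 275 against 34.8 to 61.2) UIR lay above control in every library.

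*Cyp2d12* was all but absent from UUO PT, with 0, 2.37 and 0 CPM. That is 1 UMI of 1261323, against 5202 of 49301137 in control, a ratio of 0.00751 (exact 95% interval 0.000190 to 0.0419, edgeR adjusted p = 0.000374). In the remaining PT cells it was at 2.71 and 0 CPM in the 2 UUO libraries with 20 or more such cells, against 35.1 to 133 in control, and no UUO library had 20 S1-like cells. The calls after UIR and after UUO were both kept under all 20 alternatives. *Cyp2a4* measured 36.5, 59.2 and 90.1 CPM in UUO against 106 to 258 in control. UUO libraries lay below all controls, with a log2 fold change of -1.49 (SE 0.33, edgeR adjusted p = 0.0103). Its call was lost without UUO replicate 1 or 2 and with predicted doublets kept, and its direction turned at a mitochondrial limit of 15%. Among cells neither S1-like nor S3-like it was at 40.6 and 78.3 CPM in 2 UUO libraries against 122 to 260 in control. *Cyp2d26*, with 24.3, 33.2 and 68.6 CPM in UUO, fell by 0.81 on the log2 scale (SE 0.23, edgeR adjusted p = 0.0396), though replicate 3 reached the control range. That call was kept in 10 of 20 alternatives and lost without UUO replicate 1 or 2 or any one of control replicates 1, 2, 3 and 5. In the remaining PT cells, 37.9 and 23.2 CPM in 2 UUO libraries overlapped control (23.0 to 32.5).

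*Cyp4a14*, a fatty acid ω-hydroxylase and PPARα target chosen here after its values were seen, stood at 91.3, 28.4 and 13.7 CPM in UUO against 2.30 to 12.5 in control. The UUO libraries lay above all controls but differed widely, and the gene did not pass (log2 fold change 2.65, edgeR adjusted p = 0.0594). Between the injuries, UUO against UIR, 0 of 29 members changed in PT by edgeR, against 0.0174% of all genes. At an unadjusted p under 0.05 there were 6, and DESeq2 called 1.

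Macrophage transcripts moved with these PT results. The summed level of 5 macrophage markers in PT pools was 5.81 to 10.3 CPM in control, 43.5 to 131 in UIR and 50.9 to 76.1 in UUO, with 0 or 1 marker at 0 in each library. Other immune genes moved there too. *Cd74* was at 18.7 to 41.7 CPM in control, 232 to 589 in UIR and 380 to 794 in UUO. *Lyz2* was at 0.984 to 1.90, 37.0 to 122 and 47.0 to 57.8 CPM. The part of these transcripts in the P450 results was not tested. UUO replicate 1, with 16 PT cells, was the highest UUO library for *Cyp2e1* and *Cyp4b1* and the lowest for *Cyp2a4* and *Cyp2d26*, and without it 3 members changed after UUO.

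Of the 44 genes on the 4 lists of partners of the P450 enzymes, 39 were tested in PT. After UIR 4 changed (10.3%) and after UUO 3 (7.69%), near the 9.65% and 5.76% of all genes, whose median log2 fold changes were -0.01 and -0.05. These 7 calls became 13 with no filter on low counts, 2 at a mitochondrial limit of 15% and 12 when cells were named singly. Electron transfer had 9 of 10 tested, of which 2 rose after UIR and 1 after UUO (median log2 fold changes 0.07 and 0.11). *Por*, the reductase that feeds microsomal P450s, did not pass (0.05 and 0.25 on the log2 scale, edgeR adjusted p = 0.854 and 0.435). *Cyb5r3*, the cytochrome b5 reductase, stood at 44.9 to 56.8 CPM in control, 86.3 to 96.7 in UIR and 82.2 to 116 in UUO. It rose after both, without overlap (log2 fold changes 0.82, SE 0.10, and 0.85, SE 0.15, edgeR adjusted p = 2.6e-05 and 0.00191). *Pgrmc1*, a heme-binding partner of P450s, rose after UIR (0.53, SE 0.12, edgeR adjusted p = 0.00563).

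Of 12 heme synthesis and breakdown genes, 0 were called by edgeR or DESeq2 after either injury (2 and 1 at an unadjusted p under 0.05, medians 0.00 and -0.22). Of 12 transcriptional regulators tested of 14, 0 were called by either tool (1 and 5 at an unadjusted p under 0.05, medians 0.00 and -0.11). Of 6 monooxygenase and epoxide hydrolase genes tested of 8 (medians -0.27 and -0.12), *Ephx1* and *Fmo1* changed. *Ephx1*, microsomal epoxide hydrolase, was at 0.54 to 0.95 CPM in control and at 6.29, 9.71 and 5.04 in UIR. It rose without overlap after UIR (log2 fold change 3.33, SE 0.35, edgeR adjusted p = 2.6e-06). After UUO its values were 0, 11.8 and 3.92 CPM (2.87, SE 0.82, edgeR adjusted p = 0.0461), and this call was kept in 9 of 20 alternatives and lost without UUO replicate 2 or 3, UIR replicate 1 or any one control. The UUO pools held 328635, 422154 and 510534 UMIs, so these values rest on few UMIs. The part of free RNA in the *Ephx1* levels was not tested. *Fmo1*, a flavin monooxygenase, fell from 384 to 419 CPM to 268 to 338 in UIR and 253 to 325 in UUO (log2 fold changes -0.43 and -0.58, edgeR adjusted p = 0.00974 and 0.00467).

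Failed-repair PT cells, an injured state that keeps some tubule transcripts while expressing *Vcam1* and *Havcr1*, numbered 64, 282 and 110 in UIR and 29, 67 and 41 in UUO, and at most 4 in any control. Members took 0.149%, 0.160% and 0.195% of their UMIs in UIR and 0.152%, 0.125% and 0.156% in UUO. PT cells of the same libraries had 0.344%, 0.338%, 0.343%, 0.517%, 0.377% and 0.289%. The share was lower in failed-repair cells in 6 of 6 libraries. Both cell sets come from the same libraries, so levels are given without a test.

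Members went both ways: of 42 members, 12 were lower in failed-repair than in PT cells in all 6 injured libraries, and 8 were higher in all 6. Far below their PT level were *Cyp2a4* at 3.91 against 128 CPM, *Cyp2d9* at 2.31 against 45.9, *Cyp4a10* at 9.65 against 124 and *Cyp2a5* at 6.66 against 42.6 in UIR. *Cyp4b1* was at 348 ± 46.2 against 1120 ± 102 CPM (n = 3 libraries each) and *Cyp2e1* at 268 ± 82.1 against 707 ± 36.4. Of the *Cyp2j* family, *Cyp2j5* was at 578 ± 88.2 against 693 ± 1.54 CPM and *Cyp2j13* at 174 ± 16.3 against 144 ± 23.04, nearer to PT than *Cyp2j11* at 36.1 ± 2.86 against 106 ± 7.44. *Cyp2j13* was higher in failed-repair cells in all 3 UIR libraries and in 1 of 3 UUO libraries.

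In failed-repair cells 8 members were higher than in PT in all 6 injured libraries. The share of all genes higher, or lower, in all 6 was not measured, so neither count sets the members apart. Of these 8 members, 5 had a mean above the highest empty-droplet level of UIR libraries. Above that of UUO libraries were 2, *Cyp2j6* and *Cyp2d22*. *Cyp2j6* was at 39.3 against 18.7 CPM in UIR and 53.4 against 16.5 in UUO. *Cyp20a1*, a member with no known substrate, was at 22.9 against 8.81 and 26.9 against 10.8, with 6.25 to 17.7 in the empty droplets of UIR and 18.9 to 31.5 in those of UUO. *Cyp1b1*, a target of the aryl hydrocarbon receptor, was at 22.9 against 0.784 in UIR (5.43 to 10.9 in the empty droplets) and at 12.6 in UUO (11.4 to 24.8 in the empty droplets). The other 5 were *Cyp4v3*, *Cyp4f16*, *Cyp2s1*, *Cyp39a1* and *Cyp2d22*, with means of 4.57 to 14.0 CPM in failed-repair cells and 2.90 to 14.3 CPM in the empty droplets of injured libraries. The part of free RNA in these differences was not tested. Between the injuries 1 of 17 members tested in failed-repair cells changed (background 1.65%). *Cyp4b1* was at 326, 317 and 401 CPM in UIR and 162, 204 and 234 in UUO, without overlap, and was lower in UUO by a log2 fold change of -0.86 (SE 0.17, edgeR adjusted p = 0.0179). Its empty-droplet level was also lower in UUO, at 360, 202 and 124 CPM in UIR and 111, 48.1 and 118 in UUO. The UIR library highest in cells was lowest in empty droplets, while the UUO library highest in cells was also highest in empty droplets. The part of free RNA in this difference was not tested. The call was lost without UIR replicate 3 or UUO replicate 2.

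**Figure D3:**
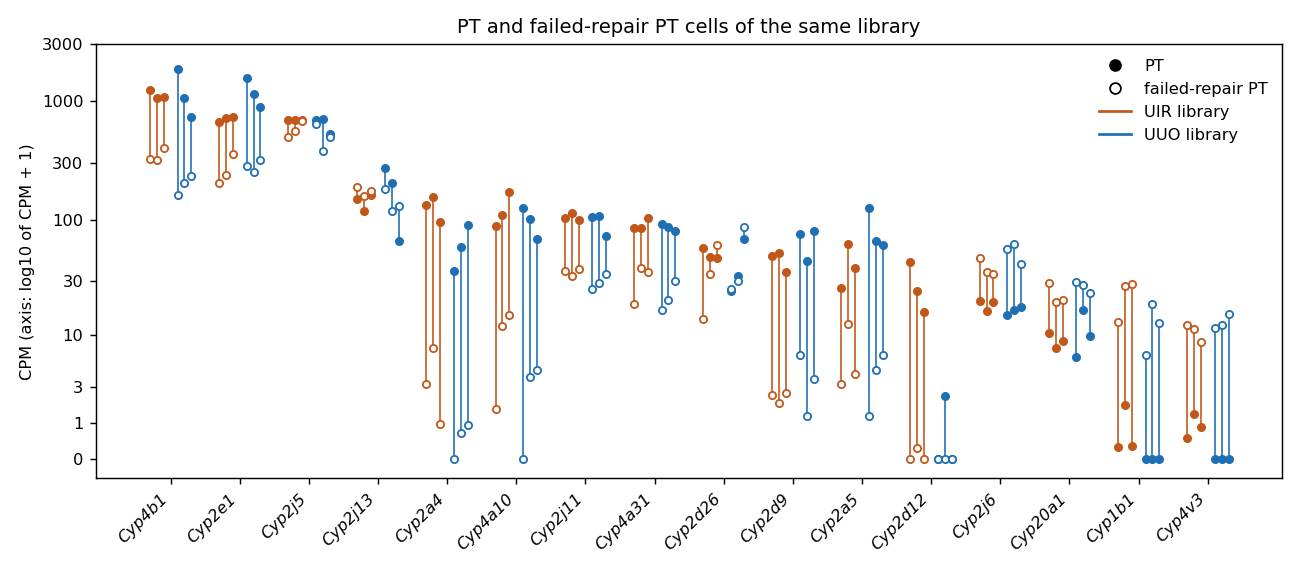
P450 levels in PT cells (filled) and failed-repair PT cells (open) of the same injured library, joined by a line, as CPM on an axis of log10(CPM + 1), with UIR to the left and UUO to the right of each gene. Most lines run down from PT to failed-repair cells, *Cyp2j5* and *Cyp2j13* run nearly level, and *Cyp2j6*, *Cyp20a1*, *Cyp1b1* and *Cyp4v3* run up.

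Outside the proximal tubule the family had other leading members. By mean level over libraries, 17 members were highest in PT and 25 elsewhere: 5 in intercalated cells, 3 each in distal tubule, endothelial cells and neutrophils, and the remaining 11 in 7 further classes. Some rest on few counts, such as *Cyp11a1*, highest in neutrophils with 12 UMIs over 3 UUO libraries (0 to 40 CPM). With at least 20 CPM in 2 libraries and 3 times the empty droplets in most, 12 members were highest in PT and 18 elsewhere. Both splits compare means over different libraries: failed-repair cells, dendritic cells and neutrophils, for example, had no control pool, unlike PT. Levels are set beside the empty droplets of the same libraries, in which RNA of the members was also counted.

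**Figure D4:**
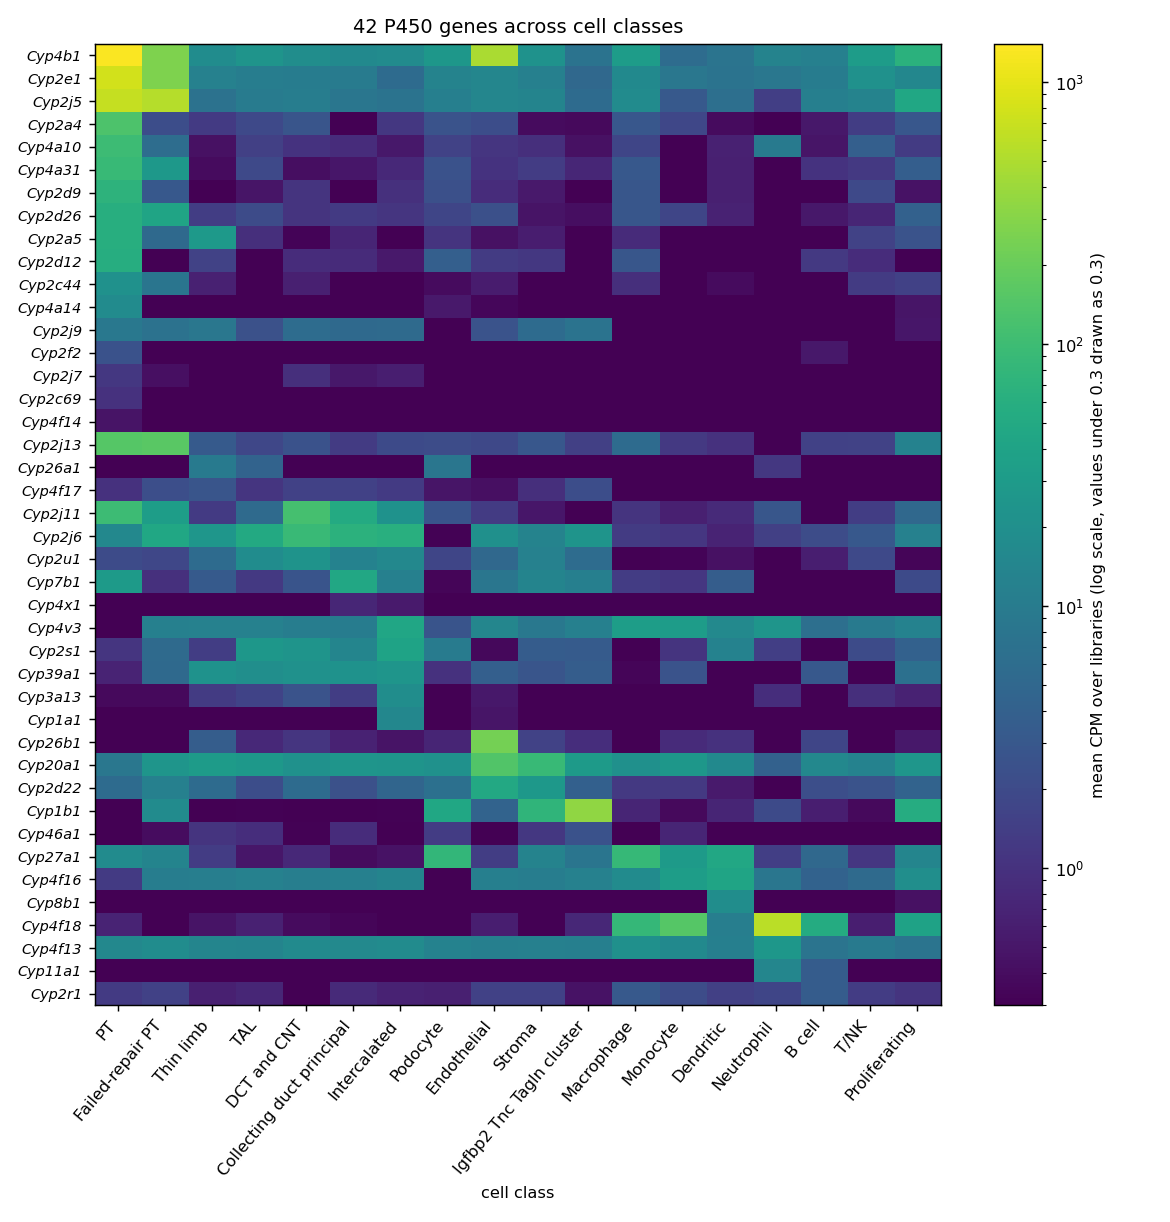
Mean CPM of the 42 members in each cell class, as colour on a log scale, with genes ordered by the class where they are highest. PT holds a block of 17 members, intercalated cells 5, and single members stand out elsewhere, such as *Cyp26b1* in endothelial cells and *Cyp4f18* in neutrophils.

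In endothelial cells *Cyp26b1*, a retinoic acid hydroxylase, measured 402, 433, 75.3, 329 and 135 CPM in control, against 0.391 to 3.73 in the empty droplets of those libraries. *Cyp20a1* (117 to 151 CPM in control) and *Cyp2d22* (34.2 to 54.8) were also above free RNA there. *Cyp4b1*, chosen here after its values were seen, was at 410, 509, 602, 479 and 342 CPM in control, 616, 385 and 354 in UIR and 519, 561 and 477 in UUO endothelial cells. *Cyp2j5*, the next PT gene by level, was at 13.7 to 45.4 CPM in the same control endothelial cells. The empty droplets of controls held *Cyp4b1* at 302 to 2007 CPM, highest in replicate 1 and there above the endothelial level. Those of UIR libraries held it at 124 to 360 CPM and those of UUO libraries at 48.1 to 118. The endothelial level was at least 3 times that of the empty droplets in only 3 of 11 libraries. The part of free RNA in this level was not tested.

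In neutrophils and monocytes *Cyp4f18*, a leukotriene B4 hydroxylase, was the highest member. It measured 453 CPM in the neutrophils of 1 UIR library and 789, 562 and 508 in UUO, 168, 95.8 and 118 in UIR monocytes and 183, 178 and 174 in UUO monocytes, and 53.0 to 78.6 in control macrophages. The mitochondrial sterol hydroxylase *Cyp27a1* was at 66.3 to 118 CPM in control macrophages and at 57.0 to 103 in control podocytes. In dendritic cells *Cyp8b1*, known from bile acid synthesis in liver, measured 35.6, 14.8 and 27.8 CPM in UIR and 11.2, 12.6 and 11.9 in UUO, with 0.2 to 1.7 CPM in the empty droplets.

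In the distal nephron the *Cyp2j* family was again measured. In control distal tubule cells *Cyp2j6* stood at 65.5 to 118 CPM, above its 10.7 to 16.1 in PT, and *Cyp2j11* at 84.5 to 147, near its PT mean of 99.1, with *Cyp2j6* at 52.5 to 85.7 in collecting duct principal cells and 47.0 to 77.3 in intercalated cells. *Cyp7b1* was at 49.1 to 72.1 CPM in control principal cells and at 5.68 to 57.3 in the empty droplets, well below its level in S3-like cells. The long-chain fatty acid hydroxylase *Cyp2u1* was at 14.0 to 43.9 CPM in the control loop of Henle and 21.0 to 58.7 in distal tubule. *Cyp2s1*, a retinoid- and xenobiotic-oxidising form, was at 26.9 to 67.7 CPM in control intercalated cells.

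Changes outside PT were counted over 9 classes and 106 pairs of a member and a class. After UIR 25 pairs were called (8 higher, 17 lower), where 14.2% of all gene and class pairs were called, and 12 members and 6 classes were involved. Scaled to total UMIs without TMM factors, 25 pairs were called, 12 higher and 13 lower. After UUO 49 pairs were called (16 higher, 33 lower), where 20.4% of all pairs were called. The counts moved with the settings. At a limit of 15% there were 6 calls after UIR (3 higher, 3 lower) and 18 after UUO (4 higher, 14 lower), at 50% there were 43 (15 higher, 28 lower) and 62 (19 higher, 43 lower), and with no filter 41 (12 higher, 29 lower) and 82 (23 higher, 59 lower). Pairs whose level was at least 3 times that of the empty droplets in most libraries made up 12 of the 25 UIR calls (6 higher, 6 lower) and 19 of the 49 UUO calls (10 higher, 9 lower). Among the other calls, 11 of 13 after UIR and 24 of 30 after UUO were lower.

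The falls at free-RNA level were led by the abundant PT genes. *Cyp4b1* fell in 5 of 9 classes after UIR and 7 after UUO, *Cyp2j5* in 4 and 7 of 8, and *Cyp2e1* in 1 and 6 of 7. In principal cells *Cyp4b1* went from 60.4, 18.4, 17.6, 17.5 and 35.3 CPM in control to 12.7, 11.3 and 2.99 in UIR and 2.84, 0.716 and 0 in UUO (log2 fold changes -1.96 and -4.79, edgeR adjusted p = 0.0058 and 1.75e-05). In T and NK cells it went from 163, 0, 38.5, 32.7 and 34.2 to 4.3, 1.1 and 10.8 in UUO (-3.35, edgeR adjusted p = 0.00172), and that call was lost without control replicate 1. The empty droplets held *Cyp4b1* at 302 to 2007 CPM in control, 124 to 360 in UIR and 48.1 to 118 in UUO. The part of free RNA in these falls was not tested. With 10% of each library's empty-droplet profile subtracted, 14 pairs were called after UIR (8 higher, 6 lower) and 25 after UUO (15 higher, 10 lower).

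In endothelial cells 0 of 15 members changed after UIR by edgeR or DESeq2 (background 2.48%, with 2 at an unadjusted p under 0.05), and 3 fell after UUO (background 12.9%). *Cyp26b1* was at 306, 406 and 235 CPM in UIR and 88.2, 130 and 52.5 in UUO. UUO lay below UIR in every library, while 2 of the 5 controls (75.3 and 135) lay within or next to the UUO range. The log2 fold change was -1.71 against control (SE 0.38, edgeR adjusted p = 0.0040) and -1.85 against UIR (SE 0.40, edgeR adjusted p = 0.0126, where 3 of 15 members were called against a background of 2.90%). The call against control held in 20 of 20 alternatives, and that against UIR was lost without UIR replicate 2 or UUO replicate 3.

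In stroma 2 of 14 members rose after UIR (background 11.8%), and after UUO 4 rose and 3 fell (background 15.6%). *Cyp1b1* was at 48.7, 0, 5.34 and 0 CPM in the 4 control libraries with enough stromal cells, 84.2, 112 and 132 in UIR and 116, 147 and 109 in UUO. Injured libraries lay above all controls, with log2 fold changes of 2.63 (SE 0.50, edgeR adjusted p = 0.00235) and 2.73 (SE 0.50, edgeR adjusted p = 0.00115), called in 19 of 19 alternatives each. Its empty droplets held 0.247 to 0.718 CPM in control, 5.43 to 10.9 in UIR and 11.4 to 24.8 in UUO. Control stroma came mainly from a cluster led by *Sfrp2* and *Ptn* and injured stroma from clusters led by *Col3a1* and *Rgs5*, so the type of stromal cell moved with injury and its part in the rise was not tested. *Cyp7b1* had 3 UMIs in control stroma against 92 in UIR (ratio of levels 5.20, exact interval 1.72 to 25.7) and 117 in UUO (5.91, 1.97 to 29.1). These calls (edgeR adjusted p = 0.0307 and 0.0150) were lost in 7 and 3 of 19 alternatives, both without control replicate 1 or 3. Against UIR, 2 of 14 members in stroma changed in UUO, *Cyp4b1* and *Cyp2j5* (background 1.68%).

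*Cyp1b1* was also high in a cluster led by *Igfbp2*, *Tnc* and *Tagln*, which had few control cells, with 325, 301 and 343 CPM in UIR and 352, 431 and 329 in UUO. In podocytes it was at 39.1, 21.0, 12.2, 33.6 and 16.3 CPM in control, 78.0, 44.9 and 43.2 in UIR and 67.7, 72.9 and 77.3 in UUO. Both injuries lay above all controls. The rise passed after UUO (log2 fold change 1.38, SE 0.30, edgeR adjusted p = 0.00811), where 1 of 4 members was called (background 2.56%), but was lost without UUO replicate 3. After UIR 0 of 4 were called in podocytes by edgeR or DESeq2 (background 0.778%, with 2 at an unadjusted p under 0.05).

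Intercalated cells had 4 of 15 members called after UIR, 1 higher and 3 lower (background 16.6%), and 7 after UUO, 2 higher and 5 lower (background 25.2%). *Cyp3a13*, of the drug-oxidising CYP3A family, was at 10.0, 3.5, 9.27, 11.6 and 2.24 CPM in control, 14.7, 12.8 and 12.8 in UIR and 38.4, 47.4 and 42.8 in UUO. UUO was apart from both other groups (log2 fold change 2.19, SE 0.29, against control, edgeR adjusted p = 1.09e-05). Against UIR the log2 fold change was 1.65 (SE 0.20, edgeR adjusted p = 0.000322), where 3 of 15 members were called against a background of 1.36%. *Cyp4v3*, a fatty acid hydroxylase, went from 15.5 to 28.8 CPM in control to 55.8, 43.0 and 46.0 in UIR and 77.7, 67.9 and 86.1 in UUO. Its rise passed after UUO (log2 fold change 1.35, SE 0.21, edgeR adjusted p = 5.01e-05) and after UIR (0.72, SE 0.21, edgeR adjusted p = 0.0219). The UIR call was lost without UIR replicate 1 or control replicate 2 or 5. *Cyp1a1*, the classical aryl hydrocarbon receptor target, went the other way, from 26.3, 17.5, 12.4, 18.6 and 20.1 CPM in control to 11.4, 8.40 and 4.94 in UUO. It fell without overlap by 1.68 on the log2 scale (SE 0.37, edgeR adjusted p = 0.00166) and held in 19 of 19 alternatives.

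In the loop of Henle 8 of 16 members changed after UIR, 2 higher and 6 lower (background 32.4%), and 11 after UUO, 3 higher and 8 lower (background 36.8%). The cells compared there came from different clusters, 1 led by *Egf* and *Umod* in control and 1 led by *Umod* and *Cldn19* after injury, and their part in these changes was not tested. *Cyp26a1*, a retinoic acid hydroxylase, had 0 UMIs in all 5 control libraries, 3.5, 4.5 and 2.9 CPM in UIR and 18.4, 13.4 and 6.5 in UUO. With 190 UMIs against 0 it was at least 8.58-fold higher in UUO (floor of 3 UMIs over the control group, edgeR adjusted p = 0.000779), a call lost when predicted doublets were kept. It was higher in UUO than in UIR by a log2 fold change of 1.88 (SE 0.32, edgeR adjusted p = 0.00256), in 20 of 20 alternatives, where 2 of 16 members were called against a background of 1.89%. The empty droplets held it at 0 to 2.85 CPM. *Cyp2u1* was at 25.1, 43.9, 14.0, 28.1 and 43.3 CPM in control and 8.9, 8.51 and 8.0 in UIR, without overlap (log2 fold change -2.06, SE 0.33, edgeR adjusted p = 3.34e-05).

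The upstream sequences of the retinoic acid and aryl hydrocarbon receptor members are shown because *Cyp26a1*, *Cyp1b1* and *Cyp1a1* are textbook targets of those receptors and were each called in a class. They are the 250 bases before the start site in RefSeq (GRCm38.p6), at chr19:37697558-37697807 (plus strand), chr17:79715062-79715311 (minus strand) and chr9:57697363-57697612 (plus strand), 5′ to 3′ on the gene's strand, with motif matches in capitals.
Cyp26a1: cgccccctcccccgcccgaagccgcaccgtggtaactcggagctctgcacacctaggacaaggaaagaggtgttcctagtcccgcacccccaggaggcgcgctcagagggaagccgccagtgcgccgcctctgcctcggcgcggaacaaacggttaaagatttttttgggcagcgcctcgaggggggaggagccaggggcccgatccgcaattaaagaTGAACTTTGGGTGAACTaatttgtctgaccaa
Cyp1b1: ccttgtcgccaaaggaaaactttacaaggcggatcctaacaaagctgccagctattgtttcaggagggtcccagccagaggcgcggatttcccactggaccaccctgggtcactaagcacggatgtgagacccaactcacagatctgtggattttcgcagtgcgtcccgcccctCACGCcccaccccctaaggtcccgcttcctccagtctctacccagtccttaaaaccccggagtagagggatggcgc
Cyp1a1: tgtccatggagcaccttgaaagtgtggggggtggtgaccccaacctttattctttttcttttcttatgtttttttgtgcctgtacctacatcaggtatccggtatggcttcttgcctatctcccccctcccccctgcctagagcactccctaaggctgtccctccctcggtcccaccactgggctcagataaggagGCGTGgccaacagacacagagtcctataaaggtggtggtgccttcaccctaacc
The capitals in *Cyp26a1* mark a direct repeat read by retinoic acid receptors (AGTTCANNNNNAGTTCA, either strand), beginning 32 bases before the start. In windows of 250 bases before to 50 after the start, it occurred in 1 of the 30 members with an entry and in 8 of 32851 promoters of all genes (0.0244%). Only this exact form of the repeat, without alternative letters, was searched. Neither its presence in *Cyp26a1* nor its rarity therefore sets that gene apart. The capitals in the other two mark the core bound by the aryl hydrocarbon receptor (GCGTG, either strand), which occurred in 10 of the 30 members and in 32.4% of all promoters, so its presence sets neither gene apart. A match is a description of these letters and not a measured site.

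In distal tubule cells 7 of 10 members changed after UIR, 3 higher and 4 lower (background 38.0%), and 6 after UUO, 3 higher and 3 lower (background 38.1%). *Cyp2s1* was at 10.2, 10.8, 12.1, 14.0 and 5.99 CPM in control, 15.96, 24.3 and 22.6 in UIR and 17.6, 51.9 and 73.9 in UUO. All injured libraries lay above all controls, and the rise passed after UUO (log2 fold change 1.82, SE 0.36, edgeR adjusted p = 0.000148). *Cyp39a1*, an oxysterol hydroxylase, was at 6.89 to 12.9 CPM in control and 33.0, 30.7 and 35.1 in UIR, without overlap (1.35, SE 0.25, edgeR adjusted p = 8.98e-05). *Cyp2u1* was lower in UUO (19.8, 5.46 and 14.1 against 21.0 to 58.7 CPM; log2 fold change -1.75, SE 0.44, edgeR adjusted p = 0.00194).

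In principal cells 2 of 14 members fell after UIR (background 15.3%), and after UUO 3 rose and 5 fell (background 33.6%). *Cyp2u1* was at 20.4, 20.03, 21.1, 16.5 and 11.8 CPM in control and 6.82, 5.01 and 4.83 in UUO, without overlap (log2 fold change -1.86, SE 0.31, edgeR adjusted p = 0.000134). Its fall after UIR (-0.89, edgeR adjusted p = 0.0339) was lost in 9 of 20 alternatives and turned in 1. It was lost without UIR replicate 2 or 3 or any one of control replicates 1 to 4. *Cyp7b1* was at 31.3, 29.3 and 27.1 CPM in UUO and 34.6, 54.8 and 52.8 in UIR. UUO lay below UIR in every library, by a log2 fold change of -0.73 (SE 0.20, edgeR adjusted p = 0.0361), where 3 of 14 members were called against a background of 5.18%. That call was lost in 10 of 20 alternatives, among them without any one UUO library or without UIR replicate 2 or 3. As in the loop of Henle, control and injured cells of the distal tubule and collecting duct fell mostly into different clusters.

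In macrophages and in T and NK cells the calls were falls of PT genes. In macrophages 2 of 10 members fell after UIR (background 6.09%) and 4 after UUO (background 9.57%), all of them PT genes at free-RNA level such as *Cyp2j5* (18.1 to 39.8 CPM in control, 6.13 to 13.8 in UIR and 1.07 to 4.35 in UUO). *Cyp27a1* (60.1 to 90.6 CPM in UIR and 73.1 to 81.0 in UUO) and *Cyp4f18* (77.9 to 91.0 and 85.5 to 112) were not called. Between UUO and UIR, 3 of 10 changed in macrophages (background 1.80%), all lower in UUO. In T and NK cells 0 of 8 members changed after UIR by edgeR or DESeq2 (background 0.457%, with 1 at an unadjusted p under 0.05), 2 fell after UUO (background 2.24%) and 3 were lower in UUO than in UIR (background 1.30%). In dendritic cells, which had no control pool, 1 of 12 members was called between UUO and UIR (background 0.488%). It was *Cyp4b1*, at 13.3, 19.1 and 6.75 CPM in UIR and 3.12, 1.43 and 2.83 in UUO (log2 fold change -2.49, edgeR adjusted p = 0.0311), below its empty-droplet level, and the call was lost without UIR replicate 1 or 2 or any one UUO library. In T and NK cells the median gene itself moved by 0.12 after UIR and 0.13 after UUO on the log2 scale.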

How the data were processed

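Kidney cells of 11 mouse libraries were profiled by 3′ single-cell RNA sequencing. The deposited matrices hold raw UMI counts per gene and barcode, empty droplets included, made by the authors with Cell Ranger 3.1.0 on mm10 per the file headers, whereas the methods of the study name a later version. The removal of free RNA and of doublets described by the authors was applied after these counts.

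Cells with at least 1000 UMIs, at least 200 genes, at most 30% mitochondrial UMIs and at most 5% hemoglobin UMIs were kept. The 7.5% of cells per library with the highest Scrublet doublet score were removed. Cells were clustered without any Cyp gene (2000 variable genes, 40 components, 20 neighbours, Leiden resolution 1; scanpy 1.11.5, Python 3.11.15) and named from marker lists. UMIs were summed per library and class in pools of at least 20 cells. For PT all 11 libraries were kept, including 1 with 16 cells. Levels are CPM: UMIs per 1000000 UMIs of the pool, not divided by gene length, as 3′ UMIs count molecules.

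Pools were compared with edgeR 4.0.16 (R 4.3.3) quasi-likelihood tests after filterByExpr and TMM scaling, with the 3 groups in one model. The p-values were adjusted by the Benjamini-Hochberg method over all genes tested in the class, and genes at adjusted p under 0.05 were called. On counts simulated for the 11477 genes of the PT fit, 106 of 106 genes changed by 1 log2 unit and 94 of 94 changed by 2 were recovered for UIR against control. For UUO against control 65 of 106 and 94 of 94 were recovered. False calls numbered 12 and 11. Empty droplets (barcode ranks 45000 to 90000 by UMI) gave the level of free RNA in each library.

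Named genes were the 12 members highest in control PT, members called in PT (at most 10 per contrast), up to 4 members per other class at 20 or more CPM in at least 2 libraries and 3 or more times the empty droplets in most, up to 4 called members per class and contrast by size, partner genes called in PT with Por, and the 2 members on each side of the UMI limit. Members and lists were chosen with earlier results of these data known. Alternatives were DESeq2 1.42.0, no TMM factors, no filter on low counts, mitochondrial limits of 15% and 50%, 2000 UMIs per cell, doublets kept, subtraction of 10% of the empty-droplet profile, naming each cell on its own, leaving out each library, and the replicate number as a block.

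Control libraries held 91920461 to 110914244 UMIs, UIR libraries 82522753 to 117043590 and UUO libraries 49503312 to 60918546. Intervals and floors (3 UMIs) cover counting error only. The study's methods give 5 control mice and 3 mice per injury model, the same numbers as of libraries, but no label ties a library to a mouse, so p-values measure the spread between libraries, which may be technical.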

Additional observations from a re-analysis of the deposited data

Results flagged for a closer look

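Of 78 control groups of member values, 12 had 1 library far from the others by Dixon's gap test, where chance gives about 1 in 20. Control replicate 1 was that library in 7 of them: the P450 share of empty-droplet UMIs (0.480%), *Cyp4b1* in T and NK cells (163 CPM) and in the loop of Henle (75.2 CPM), *Cyp2j5* (45.4 CPM) and *Cyp2e1* (44.5 CPM) in endothelial cells, *Cyp2j6* in principal cells (85.7 CPM) and *Cyp1b1* in stroma (48.7 CPM). Control replicate 4 was apart for *Cyp2u1* in distal tubule (58.7 CPM), *Cyp4a10* in PT (64.1 CPM) and *Cyp20a1* in stroma (142 CPM), and control replicate 2 for *Cyp4a31* in PT (79.0 CPM) and *Cyp4f18* in macrophages (53.0 CPM).

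In the classes outside PT with control pools, UUO differed from UIR in 19 of the 106 pairs of a member and a class (edgeR, log2 fold changes of UUO against UIR). In the classes holding these pairs, 1.30% (T and NK cells) to 5.18% (principal cells) of all genes were called. The 2 further calls, *Cyp4b1* in failed-repair and in dendritic cells (-0.86 and -2.49), had no control level to set them against. The PT genes were lower in UUO: *Cyp4b1* had -2.83 in principal cells, -2.67 in intercalated cells, -2.42 in macrophages, -2.28 in stroma and -2.10 in T and NK cells. *Cyp2j5* had -3.16 in principal cells, -3.16 in endothelial cells, -3.81 in intercalated cells, -2.25 in macrophages, -3.18 in stroma, -2.01 in T and NK cells and -2.43 in the loop of Henle, and *Cyp2e1* had -1.57 in endothelial cells, -1.79 in macrophages and -1.56 in T and NK cells. Their empty-droplet levels were also lower in UUO, and the part of free RNA was not tested. The other 4 were *Cyp7b1* in principal cells (-0.73), *Cyp26b1* in endothelial cells (-1.85), *Cyp3a13* in intercalated cells (1.65) and *Cyp26a1* in the loop of Henle (1.88).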

How the results depend on the processing

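Members changed after UIR in PT numbered 6, against 3 at a mitochondrial limit of 15%, and 2 to 6 when 1 library was left out (2 without UIR replicate 2, 3 without UIR replicate 3 or control replicate 4). With DESeq2 they were again 6, 3 higher and 3 lower. After UUO they numbered 4, against 8 with DESeq2 (4 higher, 4 lower), 7 each with no filter on low counts, at a mitochondrial limit of 50% and when cells were named singly, and 2 to 5 when 1 library was left out (2 without UUO replicate 2). UUO against UIR gave 0, against 1 with DESeq2, 4 with no filter, 0 to 0 when 1 library was left out, 1 in the injured libraries with the replicate number as a block and 0 without that block. Same-numbered UIR and UUO libraries deviated together with r of 0.137, 0.00962 and 0.0338, and the other pairs with -0.0957 to 0.0821. Such values cannot tell whether same-numbered libraries share a batch, and the block is given here alone.

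Outside PT the 25 UIR calls became 41 with no filter, 6 at a limit of 15%, 43 at 50%, 14 with the empty-droplet profile subtracted and 17 to 28 when 1 library was left out (17 without control replicate 1). The 49 UUO calls became 82, 18 at 15%, 25 with the profile subtracted, and 43 to 50. The 7 partner calls became 13 with no filter, 2 at 15%, 12 when cells were named singly, and 5 to 9. Single named results kept direction and side of the threshold in 1411 alternatives, lost the call in 201 and reversed in 3: *Cyp2a4* in PT after UUO at a limit of 15% (0.18), *Cyp2d26* in PT after UUO when cells were named singly (0.026) and *Cyp2u1* in principal cells after UIR at 15% (0.50). Where a gene or class dropped out of a fit, that alternative gave no value. A limit of 15% leaves fewer cells. The cause of these shifts, those at 15% among them, was not tested. UUO levels in PT rest on 328635 to 510534 UMIs per library, so a level below about 3 UMIs in such a pool was not detectable.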
